A study of Mus musculus with 30 samples.

Results

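Mas-related G protein-coupled receptors are a family of sensory receptors, most of them found on small nociceptors and itch neurons. Different neuron types carry different members or sets of members, so that the receptors serve as markers of neuron classes as well as detectors of pruritic and other ligands. The transcription factor Runx1 is known to govern many of them in mouse sensory neurons. Described here are 7 members: Mrgprd, Mrgpre, Mrgprf, Mrgprx1, Mrgpra3, Mrgprb4 and Mrgprb5. They were taken by symbol from a table of 48795 genes, with GENCODE M21 used to turn Ensembl identifiers into symbols, and all 7 had reads. The annotation lists 34 genes of the family, Mas1 included, and 26 of them had a read in any library. The group was selected with the comparison of A-Fos and GFP cultures already known, with Mrgprd the member that rose most. The comparisons of A-Fos with GFP and with untransduced cultures are therefore given for the members as a description, with no test. For the members, tests are kept for contrasts other than these. Among them, the comparison of the A-Fos effect between culture sets draws on the same A-Fos and GFP libraries.

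The libraries came from neuron-enriched primary cultures of dorsal root ganglion (DRG), all from C57/Bl6 wild-type mice. DN cultures had received A-Fos, a dominant negative that takes Jun partners out of AP-1 binding, through the PHP.S adeno-associated virus, which favours sensory neurons. GFP cultures had received GFP through the same vector, and untransduced cultures had no virus. Each condition had 10 libraries, and titles set apart 3 culture sets: a plain set (replicates 1 to 3), a 7DIV set (replicates 4 to 6, named for 7 days in vitro) and a dated set (replicates 7 to 10, with a date in the title). The labels do not give the promoter that drove A-Fos, the number of neurons per culture or the age of the mice. Culture set, date and time in vitro cannot be told apart.

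Library totals ran from 10.7 to 39.1 M gene reads (M, 1e+06). Untransduced replicate 4, of the 7DIV set, had the lowest total, and the next lowest was 24.1 M. Its Malat1 level, a noncoding RNA kept in the nucleus, was 37657 CPM, while the other 29 libraries had 1875 to 8316 CPM. Where a fit without this library was made, results that change are given both ways. CPM here are counts per 1e+06 of the library total after trimmed-mean scaling (TMM). Sensory neuron markers were present in every condition: the CPM of 10 such genes summed to 2882 to 4813 in DN, 2350 to 4119 in GFP and 2560 to 4385 in untransduced libraries. These are bulk libraries, in which fewer cells of a type and less RNA per cell cannot be told apart.

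Members fell into a measured and a sparse group. Mrgprd (ENSMUSG00000051207), Mrgpre (ENSMUSG00000048965), Mrgprf (ENSMUSG00000031070) and Mrgprx1 (ENSMUSG00000070552) had reads in all 30 libraries and passed the filter on low counts, which asks for about 10 reads in 10 libraries. All 4 reached that level in each of the 30 libraries, so none passed through a single condition. Mrgpra3 (ENSMUSG00000078698) had 280 reads in 21 libraries. Mrgprb5 (ENSMUSG00000070551) had 54 reads in 18 libraries and Mrgprb4 (ENSMUSG00000070550) had 30 reads in 4 libraries. These 3 did not pass the filter. A library with no read of a gene allows a level of up to 0.0757 to 0.251 CPM, depending on its depth, from counting error alone.

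All members lie on chromosome 7 of GRCm38. Mrgprf (145300828 to 145309557, plus strand) and Mrgprd (145314835 to 145324086, plus strand) are neighbours, and Mrgpre (143778363 to 143784500, minus strand) lies in the same region. Mrgpra3 (47588950 to 47601372), Mrgprx1 (48020971 to 48027597), Mrgprb5 (48167983 to 48169019) and Mrgprb4 (48198070 to 48199288) are on the minus strand of the large receptor cluster. Family members are alike in sequence, so shared 50-base stretches of their transcripts were counted. Mrgprd, Mrgpre and Mrgprf shared 0% of theirs with another family gene, Mrgprx1 2.92%, Mrgpra3 7.14%, Mrgprb4 1.45% and Mrgprb5 0.81%. A small noncoding gene, Gm22064, overlaps Mrgpre.

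Promoters are shown for the member with the largest difference between DN and GFP (Mrgprd), for the member with the next largest among those measured in all libraries (Mrgprx1), and for the member with the smallest (Mrgpre). Each is the 250 bases before the start of the gene, read 5′ to 3′ along the gene, from RefSeq on GRCm38.p6.
Mrgprd, chr7:145314585-145314834, plus strand: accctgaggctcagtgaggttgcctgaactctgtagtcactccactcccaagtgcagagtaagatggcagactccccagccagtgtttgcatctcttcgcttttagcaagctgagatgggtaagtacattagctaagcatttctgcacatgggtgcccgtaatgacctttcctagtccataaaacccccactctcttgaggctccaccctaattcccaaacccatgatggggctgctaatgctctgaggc
Mrgprx1, chr7:48027598-48027847, minus strand: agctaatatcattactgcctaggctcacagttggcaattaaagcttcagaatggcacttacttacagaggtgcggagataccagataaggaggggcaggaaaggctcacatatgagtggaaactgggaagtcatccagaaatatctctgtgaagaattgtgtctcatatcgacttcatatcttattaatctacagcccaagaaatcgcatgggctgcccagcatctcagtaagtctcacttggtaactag
Mrgpre, chr7:143784501-143784750, minus strand: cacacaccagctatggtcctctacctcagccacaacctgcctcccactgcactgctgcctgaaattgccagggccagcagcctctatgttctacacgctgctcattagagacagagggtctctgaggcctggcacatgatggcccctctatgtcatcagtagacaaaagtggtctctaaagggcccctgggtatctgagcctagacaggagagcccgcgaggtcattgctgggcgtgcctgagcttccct

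The 3 stretches were searched on both strands for the AP-1 site TGACTCA, the cyclic AMP response element TGACGTCA and the RUNX core TGTGGT. None of the 3 words occurs in them, so no letter is in capitals. Over 32851 promoters of the same length, 4.46% held the AP-1 word, 1.55% the cyclic AMP word and 14% the RUNX word. Promoters of 5 members were in the reference table (also Mrgprb4 and Mrgprb5), and none held any of these words. A missing word says nothing of binding there or elsewhere.

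Mrgprd, the receptor for beta-alanine on nonpeptidergic nociceptors, was far higher in DN than in either control. In the plain set the DN libraries had 67.9, 34.8 and 37.7 CPM, the GFP libraries 1.28, 2.35 and 0.852 CPM, and the untransduced libraries 0.95, 1.7 and 1.83 CPM. In the 7DIV set they had 64.2, 28.5 and 22.2 CPM in DN, 9.36, 3.86 and 2.53 CPM in GFP and 2.34, 7.28 and 3.77 CPM in untransduced cultures. All DN libraries of both sets lay above all control libraries, and replicate 4 of GFP was the highest control.

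In the dated set Mrgprd stood at 53.9, 45.5, 55.2 and 44.8 CPM in DN, at 2.96, 4.63, 4.81 and 3.28 CPM in GFP and at 3.82, 6.96, 3.54 and 7.29 CPM in untransduced libraries. These 4 DN libraries were the most alike of the 3 sets. Over all sets the mean was 45.5 CPM ± 15.0 (SD, n = 10) in DN, 3.59 ± 2.40 in GFP and 3.95 ± 2.42 in untransduced cultures. The lowest DN library had 22.2 CPM and the highest control library 9.36 CPM, so the groups did not overlap. DN exceeded GFP in 10 of 10 replicates, by 2.77 to 5.65 on the log2 CPM scale. The fitted log2 fold change was 3.81 (SE 0.32) against GFP and 3.57 (SE 0.32) against untransduced cultures. These contrasts share the DN libraries.

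**Figure D1:**
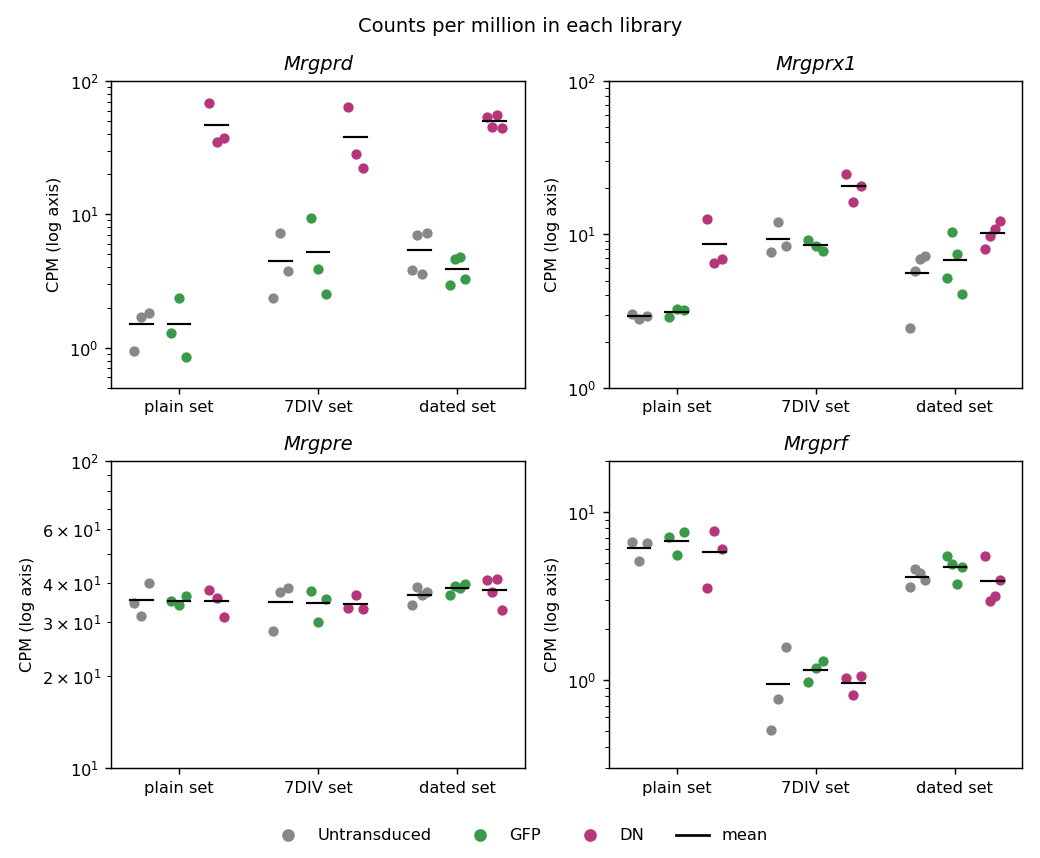
Levels in CPM (log axis) of 4 members in each of the 30 libraries, grouped by culture set. Points are libraries, coloured by condition, and bars are means. DN libraries of Mrgprd lie between 22.2 and 67.9 CPM and every control library at or below 9.36 CPM, whereas Mrgpre stays between 28.1 and 41.3 CPM in all libraries and Mrgprf lies lowest in the 7DIV set in each condition.

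By set, the log2 fold change of Mrgprd between DN and GFP was 4.94 (SE 0.48) in the plain, 2.89 (SE 0.41) in the 7DIV and 3.69 (SE 0.37) in the dated set. The DN levels were of like size in the 3 sets, with means of 46.8, 38.3 and 49.8 CPM, while the GFP means were 1.49, 5.25 and 3.92 CPM. Whether the difference between DN and GFP depended on the set was tested with edgeR's quasi-likelihood test. The 7DIV set gave a log2 fold change 2.05 units below the plain set (log2 difference -2.05, SE 0.61, adjusted p = 0.226). The joint edgeR test over the 3 sets gave an adjusted p of 0.336 for Mrgprd. It did not pass the threshold of 0.05, nor did it for Mrgprx1 (adjusted p = 0.626), Mrgpre (adjusted p = 1) or Mrgprf (adjusted p = 1). That test called 66 genes, or 0.365% of the 18063 tested. Without the filter on low counts Mrgprd did pass it (edgeR adjusted p = 1.46e-13). There the 7DIV minus plain difference was nearly the same (-2.04), but its SE was 0.24 in place of 0.61.

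Mrgprx1, a receptor for itch peptides of the bovine adrenal medulla type, was higher in DN by a smaller factor. In the plain set it had 12.6, 6.46 and 6.93 CPM in DN and 2.91, 3.28 and 3.21 CPM in GFP libraries. In the 7DIV set it had 24.7, 16.3 and 20.6 CPM in DN and 9.24, 8.42 and 7.74 CPM in GFP libraries. DN and GFP libraries did not overlap in either of these sets.

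In the dated set Mrgprx1 had 8.07, 9.69, 10.8 and 12.3 CPM in DN and 5.22, 10.3, 7.43 and 4.1 CPM in GFP libraries, and there the groups overlapped. Replicate 8 was the replicate in which GFP lay above DN. The mean over all sets was 12.8 CPM ± 6.02 (SD, n = 10) in DN, 6.19 ± 2.76 in GFP and 5.94 ± 3.13 in untransduced libraries. DN was higher in 9 of 10 replicates against GFP and in 10 of 10 against untransduced cultures. The log2 fold change was 1.05 (SE 0.17) against GFP, made up of 1.42 (SE 0.30), 1.28 (SE 0.27) and 0.62 (SE 0.24) in the plain, 7DIV and dated sets. The difference between the dated and the plain set was -0.80 on the log2 scale (SE 0.38) and did not pass (edgeR adjusted p = 0.827).

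Mrgpre, an orphan receptor of the family, was at the same level in all conditions within its spread. Its lowest, median and highest libraries had 31.1, 36.3 and 41.3 CPM in DN, 30.01, 36.5 and 39.9 CPM in GFP and 28.1, 37.0 and 40.0 CPM in untransduced cultures. The ranges overlapped nearly whole, and DN exceeded GFP in 5 of 10 replicates. The log2 fold change was -0.01 (SE 0.06) against GFP, with a 95% interval from -0.14 to 0.11. Within the plain, 7DIV and dated sets it was -0.0021, -0.01 and -0.02.

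Mrgprf, another orphan member, was lower in DN than in GFP in 8 of 10 replicates, by less than its spread. Its means were 3.57 CPM ± 2.30 (SD, n = 10) in DN, 4.25 ± 2.41 in GFP and 3.75 ± 2.19 in untransduced libraries. The log2 fold change was -0.26 (SE 0.15) against GFP and -0.08 (SE 0.15) against untransduced cultures, with 95% intervals from -0.55 to 0.02 and from -0.37 to 0.21. The sets gave -0.24, -0.24 and -0.29 against GFP in the plain, 7DIV and dated order.

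**Figure D2:**
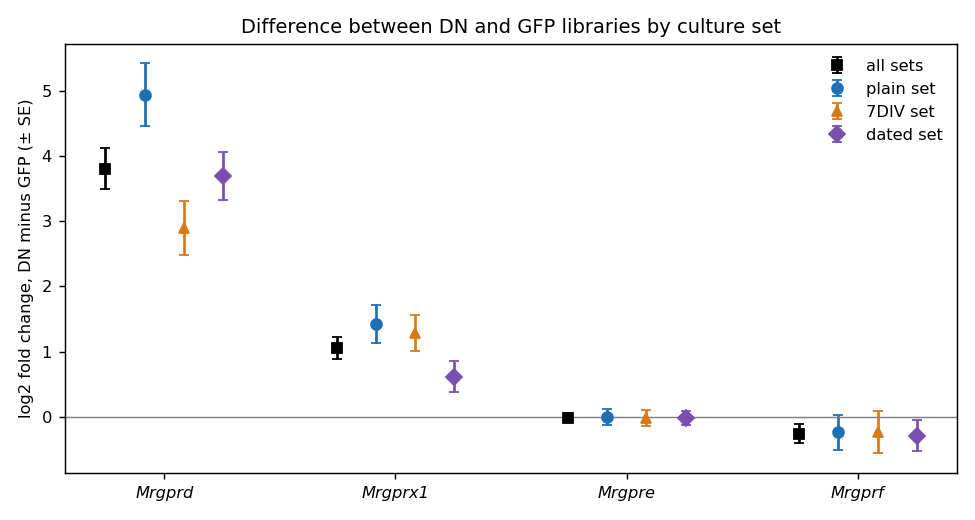
Log2 fold change between DN and GFP libraries for 4 members (vertical axis, error bars are SE), over all sets and within each culture set. Mrgprd lies between 2.89 and 4.94, Mrgprx1 between 0.62 and 1.42, and Mrgpre and Mrgprf near or below 0 in each set.

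Of the 4 members past the filter, 2 were past an adjusted p of 0.05 in the comparison of DN with GFP, both higher in DN. Over all genes 11.4% were past it, 7.98% higher and 3.39% lower in DN. In 1 of the 4, Mrgprd, all DN libraries lay above all GFP libraries, as for 0.653% of all genes tested. The selection used this contrast, so nothing is read from these counts.

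Mrgpra3, the chloroquine receptor of itch neurons, had most of its reads in DN libraries. It had 17, 24 and 2 reads in DN and 0, 0 and 0 reads in GFP libraries of the plain set, and 25, 4 and 21 reads in DN and 0, 2 and 0 reads in GFP libraries of the 7DIV set. In the dated set it had 11, 57, 52 and 26 reads in DN and 2, 6, 11 and 5 reads in GFP libraries. Untransduced libraries had 15 reads in all, at most 6 in a library. DN held 239 of the 280 reads.

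The mean level of Mrgpra3 was 0.758 CPM ± 0.540 (SD, n = 10) in DN, 0.0826 ± 0.119 in GFP and 0.0513 ± 0.0623 in untransduced libraries. DN was higher than GFP and than untransduced cultures in 10 of 10 replicates, although the groups overlapped: DN replicates 3, 5 and 7 lay below GFP replicate 9. The ratio of the DN to the GFP mean was 9.19. Most control values lie below the level that a count of 0 allows.

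Mrgprb4, which marks unmyelinated afferents that respond to stroking, had its reads in very few libraries. DN replicate 8 had 21 of its 30 reads and the other 9 DN libraries had 0. The 9 remaining reads were in 3 GFP libraries, and untransduced libraries had 0. Mrgprb5, its neighbour on the chromosome, had 12 reads in DN, 27 in GFP and 15 in untransduced libraries. DN was higher than GFP in 2 replicates and lower in 6, with the remaining 2 equal. Neither gene was tested between DN and the controls.

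**Figure D3:**
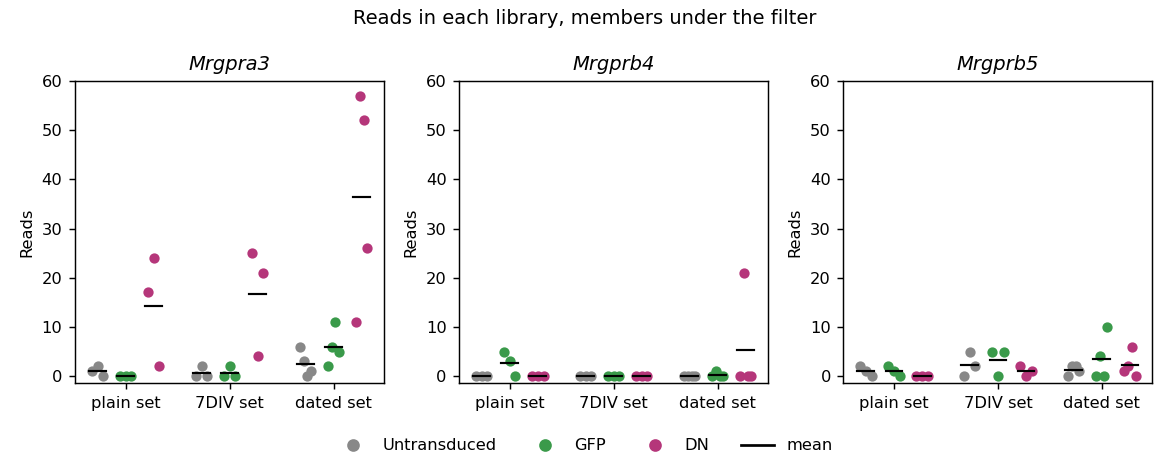
Reads of the 3 members under the filter in each of the 30 libraries (linear axis), grouped by culture set. Points are libraries, coloured by condition, and bars are means. Mrgpra3 reaches 57 reads in DN and at most 11 in GFP, while Mrgprb4 and Mrgprb5 stay at or below 10 reads in all libraries but 1, a DN library with 21 reads of Mrgprb4.

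Per length, the order of the members differed between conditions and between culture sets. In GFP libraries the level per kilobase of exon was highest for Mrgpre (9.66 CPM per kb ± 0.773, SD, n = 10), followed by Mrgprx1 (5.24 ± 2.34), Mrgprf (1.92 ± 1.09) and Mrgprd (1.14 ± 0.764). Each of these neighbours had overlapping ranges. Mrgprb5 (0.0809 ± 0.105), Mrgpra3 (0.0638 ± 0.0916) and Mrgprb4 (0.0235 ± 0.0458) followed and overlapped among themselves. Over all sets Mrgprd led in DN libraries (14.5 CPM per kb ± 4.77), ahead of Mrgprx1 (10.9 ± 5.10) and Mrgpre (9.58 ± 0.942). The ranges of these 3 overlapped in turn. Mrgprf (1.61 ± 1.04) and Mrgpra3 (0.586 ± 0.417) came after them. In the 7DIV set, however, the DN mean of Mrgprx1 (17.4 CPM per kb) was above that of Mrgprd (12.2). Mrgprd led in DN libraries of the plain (14.9) and dated (15.8) sets, where Mrgpre (9.31 and 10.1) was above Mrgprx1 (7.35 and 8.66). In GFP libraries of the 7DIV set Mrgprd (1.67) was above Mrgprf (0.519).

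The vector itself was examined by comparing GFP with untransduced cultures, a contrast the selection did not use. No member passed. The log2 fold change was -0.23 (SE 0.32) for Mrgprd, 0.11 (SE 0.17) for Mrgprx1, 0.03 (SE 0.06) for Mrgpre and 0.18 (SE 0.15) for Mrgprf, each with an edgeR adjusted p of 0.998. The lowest unadjusted p of the 4 was 0.227, for Mrgprf. The 95% intervals were -0.86 to 0.40, -0.22 to 0.44, -0.10 to 0.15 and -0.11 to 0.47. Over all genes edgeR called 0 (0%), with 373 genes at an unadjusted p under 0.05, and DESeq2 also called 0, with 531. Within the 7DIV set alone, which holds untransduced replicate 4, 52 genes were called and 2952 had an unadjusted p under 0.05. No member was among the calls there (lowest edgeR adjusted p = 0.709, for Mrgprf). The contrast within this set was not fitted without untransduced replicate 4. Exact two-sided sign-flip permutation tests on 10 within-replicate differences gave p = 0.672 for Mrgpra3, p = 0.25 for Mrgprb4 and p = 0.641 for Mrgprb5. The smallest p this exact test can give is 0.00195.

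The members were next compared between culture sets in the 10 GFP libraries, which give 1 control per culture. Mrgprf was low in the 7DIV set. It had 7.11, 5.57 and 7.59 CPM in the plain set, 0.968, 1.18 and 1.3 CPM in the 7DIV set and 5.46, 4.9, 3.73 and 4.72 CPM in the dated set. The 7DIV libraries lay below all others. Mrgprf fell by 2.56 on the log2 scale from plain to 7DIV (SE 0.22, edgeR adjusted p = 4.1e-06), and was higher by 2.02 in the dated than in the 7DIV set (SE 0.22, edgeR adjusted p = 1.5e-05). Between dated and plain the log2 difference was -0.54 (SE 0.19, edgeR adjusted p = 0.0591).

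The other conditions gave values of the same order. Untransduced libraries of the 7DIV set had 0.502, 0.777 and 1.57 CPM of Mrgprf against 3.59 CPM or more in the other sets, and DN libraries had 1.02, 0.816 and 1.05 CPM against 2.97 CPM or more. From plain to 7DIV in GFP libraries, Mrgprx1 rose by 1.42 on the log2 scale (SE 0.27, edgeR adjusted p = 0.00197) and Mrgprd by 1.78 (SE 0.48, edgeR adjusted p = 0.0217). The adjusted p of Mrgprd became 0.0853, 0.0804 or 0.0762 without GFP replicate 1, 3 or 4, and its log2 difference was 1.06 without replicate 4.

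From plain to dated, Mrgprx1 rose by 1.09 (SE 0.26, edgeR adjusted p = 0.00956), while Mrgprd differed by 1.35 (SE 0.46, edgeR adjusted p = 0.0669). In the untransduced libraries, with all 10 kept, the same comparison gave 0.91 for Mrgprx1 (edgeR adjusted p = 0.161) and 1.83 for Mrgprd (edgeR adjusted p = 0.0392). Between dated and 7DIV neither passed, at -0.33 (SE 0.24, edgeR adjusted p = 0.301) for Mrgprx1 and -0.42 (SE 0.42, edgeR adjusted p = 0.462) for Mrgprd. Mrgpre differed by at most 0.16 on the log2 scale in any pair of sets (edgeR adjusted p of 0.171 or more). Over all genes, 23.7% were past the threshold between 7DIV and plain, 17.7% between dated and plain and 35.6% between dated and 7DIV.

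**Figure D4:**
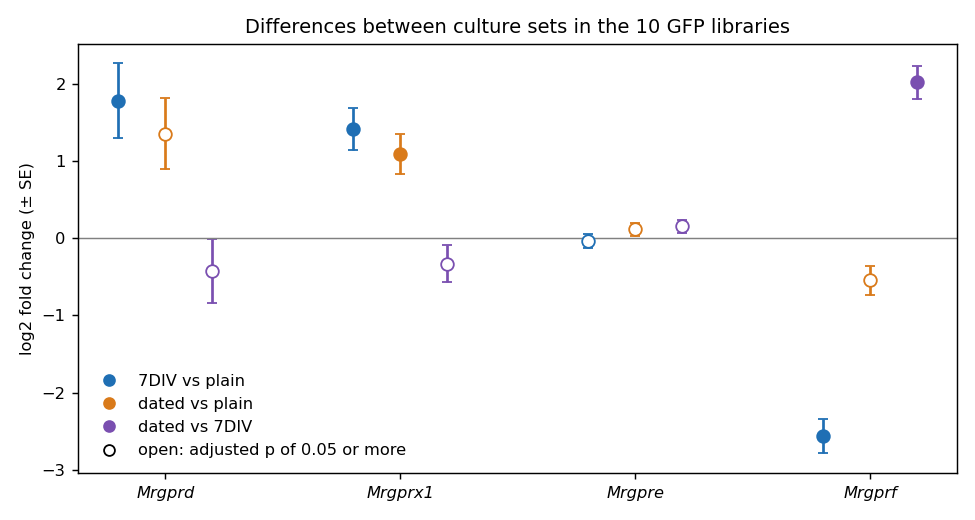
Log2 fold change between pairs of culture sets in the 10 GFP libraries for 4 members (vertical axis, error bars are SE). Filled points passed an edgeR adjusted p of 0.05 and open points did not: Mrgprf is lower by 2.56 in 7DIV than in plain and higher by 2.02 in dated than in 7DIV, and Mrgpre lies near 0 throughout.

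Markers of cell types moved with the sets as well. Of 10 sensory neuron markers, 7 were higher and 0 lower in the 7DIV than in the plain GFP libraries, with summed levels of 3765 to 4119 against 2591 to 2864 CPM. Of 5 satellite glia markers 3 were lower, of 6 Schwann cell markers 3 were lower, and of 5 fibroblast markers none passed. Of 5 smooth muscle and pericyte markers 2 were higher and 1 lower, with sums of 1196 to 1384 against 1713 to 2144 CPM. Of 4 endothelial markers 2 were higher, with sums of 18.8 to 28.9 against 5.67 to 11.9 CPM. Of 7 mast cell markers, which were included since some Mas-related receptors are mast cell genes, 6 had a mean under 1 CPM and the remaining one, Kit, was lower in 7DIV. Of macrophage markers none passed. Between dated and plain GFP libraries 2 neuron markers were higher, 3 satellite glia markers lower, 3 Schwann cell markers higher and 2 lower, 1 macrophage marker lower and Kit lower, and no fibroblast, smooth muscle or endothelial marker passed. Their part in the differences of Mrgprd, Mrgprx1 and Mrgprf between sets was not tested.

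Between DN and GFP, 7 of the 10 sensory neuron markers were higher and 1 lower, with median sums of 4047 and 3703 CPM. In the same comparison 0 of 5 fibroblast, 0 of 5 smooth muscle and 0 of 4 endothelial markers passed, 1 of 5 satellite glia, 1 of 6 Schwann cell and 1 of 4 tested macrophage markers were lower, and Kit was higher. Over all genes 7.98% were higher and 3.39% lower in DN. No marker on these lists was at 0 in all libraries. The part of neuron content in the difference of Mrgprd was not tested.

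Of 19 other family genes with a read, 3 passed the filter and 16 had between 1 and 147 reads in all. Mrgpra9 reached the filter level in 10 DN, 5 GFP and 3 untransduced libraries and Mrgpra2b in 10, 1 and 4. Both passed through the DN libraries, so the filter favoured genes that were higher in DN. Mrgprx3-ps, an unprocessed pseudogene, reached it in 10, 6 and 7. No count over these genes is taken as support.

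Mrgpra9 had a mean of 3.69 CPM ± 1.57 (SD, n = 10) in DN and 0.318 ± 0.190 in GFP libraries. Mrgpra2b had 1.01 ± 0.350 and 0.128 ± 0.141 CPM. Mrgpra2b shares 81.2% of its 50-base stretches with Mrgpra2a, so that reads of the pair may have been split or lost in counting. Mrgprx3-ps had 8.21 ± 4.10 CPM in DN, 0.577 ± 0.442 in GFP and 0.620 ± 0.417 in untransduced libraries, the groups not overlapping. Its DN mean was 12.5 CPM in the plain, 3.54 in the 7DIV and 8.47 in the dated set. The fitted log2 fold change of Mrgprx3-ps between DN and GFP was 3.87 (SE 0.41), against 3.81 (SE 0.32) for Mrgprd. Mas1 had 33 reads and Mrgprh 50 over all 30 libraries.

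The deposited repeat table counts reads over short intervals, and 35 of its 205758 intervals lie inside family genes. Of these, 4 had 20 reads or more, 2 of them in Mrgprd. The interval at chr7:145322515-145322538, annotated in the table as 3′ UTR, had 611 reads in DN, 43 in GFP and 68 in untransduced libraries, or 2.05 CPM ± 1.01 (SD, n = 10), 0.128 ± 0.137 and 0.264 ± 0.227. The interval at chr7:145324031-145324064, at the annotated end of the transcript, had 233, 2 and 19 reads. Both were higher in DN than in GFP in 10 of 10 replicates. These reads come from the same libraries and are no independent measure of Mrgprd.

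Genes whose levels followed each member were found by Pearson correlation of log2 CPM over the 30 libraries, after the mean of each condition and set was taken off. The values describe libraries that share depth and culture, and carry no test. For Mrgprd the closest were Hs6st2 (r = 0.78), Xpo7 (0.75), Rasgrp1 (0.73), Igsf3 (0.71) and Mrpl37 (0.71). For Mrgprx1 they were Cachd1 (r = 0.81), Fsd2 (0.78), Wipf3 (0.77), Ano3 (0.76) and Ankrd13b (0.74).

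For Mrgpre the closest genes were Klf13 (r = 0.83), Fam3a (0.80), Tbc1d13 (0.79), Mfsd5 (0.78) and Trim35 (0.78). For Mrgprf they were Gm6525 (r = 0.81), S100a1 (0.80), Cmbl (0.79), Nhsl2 (0.78) and Ahr (0.78). Among the members themselves r was 0.49 between Mrgprd and Mrgprx1, 0.38 between Mrgprd and Mrgpre and -0.22 between Mrgprd and Mrgprf. With the set mean alone taken off, which leaves the difference between conditions in, the genes closest to Mrgprd were Chrna6 (r = 0.95), Cd55 (0.95), Ctxn3 (0.95), Ptgir (0.95) and Adamts15 (0.95).

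Genes known to accompany the members were counted next, from lists drawn up with earlier results of these data known. They are not independent evidence of a direction. The adjusted p of a listed gene comes from the edgeR fit over all genes. It is given as a description, since this contrast was known beforehand. Between DN and GFP the median log2 fold change over all 18063 genes tested was -0.00086. Of all genes tested, 7.98% were called higher and 3.39% lower in DN, the shares against which each list is to be read. Of 18 tested co-markers of nonpeptidergic neurons of the Mrgprd type (list NP1), 14 rose and none fell, with a list median of 0.78. The 4 with the highest control levels were P2rx3, an ATP-gated channel, from 154 CPM ± 53.5 in GFP to 265 ± 70.4 in DN (log2 fold change 0.80, SE 0.12, edgeR adjusted p = 6.58e-05), Scn10a (0.52, SE 0.15, edgeR adjusted p = 0.0211) and Scn11a (0.88, SE 0.15, edgeR adjusted p = 0.00022), which encode nociceptor sodium channels, and Plxnc1 (0.75, SE 0.14, edgeR adjusted p = 0.000386), a semaphorin receptor. The first rose in 10 of 10 replicates, Scn10a in 8, Scn11a in 10 and Plxnc1 in 9.

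Of 20 tested co-markers of itch neurons, 9 rose and 2 fell, with a median of 0.24. The highest at baseline were Jak1, a cytokine receptor kinase (log2 fold change 0.04, SE 0.06), Plcb3, a phospholipase of the itch pathway, which rose (0.29, SE 0.05, edgeR adjusted p = 0.000489), Calca, the gene of calcitonin gene-related peptide, which rose (1.15, SE 0.15, edgeR adjusted p = 6.57e-06), and Il4ra, an interleukin receptor subunit (0.01, SE 0.06). The 2 that fell, named after their values were seen, were Nts, the neurotensin precursor (-2.53, SE 0.27, edgeR adjusted p = 6.75e-07), and Hrh1, a histamine receptor (-0.81, SE 0.17, edgeR adjusted p = 0.00127). Without untransduced replicate 4, 4 genes of this list fell.

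Of 8 co-markers of low-threshold C fibres, the class that Mrgprb4 neurons resemble, 4 rose and 1 fell, with a median of 0.15. Gfra2, a neurturin receptor (0.63, SE 0.10, edgeR adjusted p = 6.58e-05), the mechanosensitive channel gene Piezo2 (0.50, SE 0.08, edgeR adjusted p = 0.00012) and the calcium channel gene Cacna1h (0.29, SE 0.08, edgeR adjusted p = 0.0175) rose. Named after their values were seen, Trpm8, the cold receptor, rose (1.56, SE 0.16, edgeR adjusted p = 2.54e-07) and Fam19a4, a secreted protein of C fibres, fell (-1.80, SE 0.21, edgeR adjusted p = 1.51e-06). Gfra2 also stands on the NP1 and the regulator lists, and Lpar3 on the NP1 and the itch lists.

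Downstream of the receptors, 12 of 29 tested signal transduction genes rose and 2 fell, with a median of 0.07. Gnaq, which encodes a G protein subunit through which several of these receptors signal, rose from 346 CPM ± 49.8 in GFP to 430 ± 37.0 in DN (log2 fold change 0.33, SE 0.07, edgeR adjusted p = 0.00133). Arrb1, an arrestin (-0.17, SE 0.08), Gnai2, an inhibitory G protein subunit (0.01, SE 0.08), and Itpr3, a calcium release channel of the endoplasmic reticulum (-0.05, SE 0.06), did not pass. Ano1, a chloride channel named after its value was seen, fell (-0.43, SE 0.09, edgeR adjusted p = 0.00213).

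Of 17 genes known to govern these receptors or the neurons that carry them, 8 rose and 2 fell, with a median of 0.39. Ret, the receptor kinase of nonpeptidergic neurons, fell from 345 CPM ± 90.0 in GFP to 205 ± 71.5 in DN (log2 fold change -0.79, SE 0.09, edgeR adjusted p = 1e-06) and was lower in 10 of 10 replicates. Cbfb, the partner of Runx proteins, fell (-0.17, SE 0.05, edgeR adjusted p = 0.0206), and the transcription factor Klf7 rose (0.28, SE 0.08, edgeR adjusted p = 0.0147). Bmpr1a, a bone morphogenetic protein receptor, did not pass (-0.07, SE 0.04). Runx1, named after its value was seen, had 201 CPM ± 20.8 in GFP and 214 ± 24.5 in DN and did not pass (0.09, SE 0.04, edgeR adjusted p = 0.245).

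Of 6 tested genes that make or break down ligands of the family, such as peptides and beta-alanine, none passed. By edgeR's adjusted p the nearest was Gadl1, an enzyme gene linked to beta-alanine (0.64, SE 0.35, edgeR adjusted p = 0.294), named after its value was seen. The list median was 0.04. The enzyme genes Csad (-0.02, SE 0.08), Dpyd (-0.02, SE 0.11) and Carns1 (0.09, SE 0.10) and the proenkephalin gene Penk (-0.42, SE 0.40) had the highest control levels. In GFP against untransduced cultures no gene on any of the 6 lists passed.

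**Figure D5:**
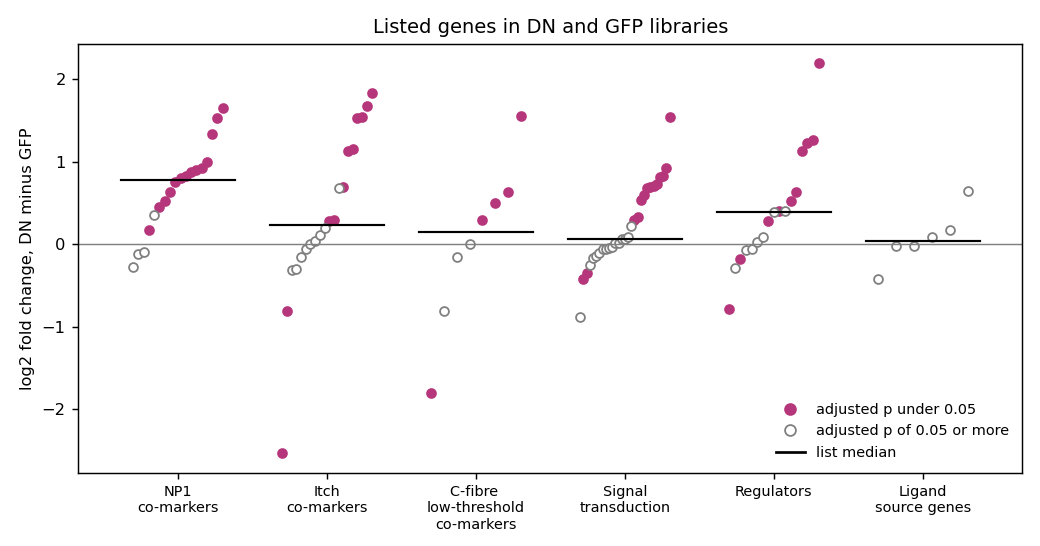
Log2 fold change between DN and GFP libraries (vertical axis) of every tested gene on 6 lists. Points are genes, filled where the edgeR adjusted p was under 0.05, and bars are list medians. In the NP1 list 14 of 18 genes are filled and all of those lie above 0.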

How the data were processed

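The authors deposited raw read counts per Ensembl gene and raw read counts per short interval for 30 libraries. Per the submitters' processing notes, bcl2fastq 2.17, STAR and HTSeq were used with GRCm38/mm10. Strand handling, annotation release and the choice of intervals are not stated there, so reads of overlapping genes cannot be told apart. The members, lists and tests were chosen with earlier results of these data known. Genes were kept by edgeR's filterByExpr by condition (18063 of 33717 with a count), scaled by TMM and fitted by robust quasi-likelihood in edgeR 4.0.16 (R 4.3.3) with condition and a replicate block, since each culture was divided between the conditions per the labels' design text. That same-number libraries shared a culture is assumed from their numbering. Such libraries correlated above 0.1 in 8 of 30 pairs (median r 0.06). Sets were compared in the 10 GFP libraries alone. P-values were adjusted by Benjamini-Hochberg over all genes, with a threshold of 0.05. Sign-flip tests used log2(CPM + 0.1). Likeness used a prior count of 2. The text names all 7 members, other family genes, at most 4 genes per list by control level and 5 genes per likeness search; the values of some listed genes are not reported here. Intervals are 1.96 SE. The model was tested on simulated data. Alternatives were other scalings, DESeq2 1.42.0, no filter, no replicate block and left-out libraries.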

Additional observations from a re-analysis of the deposited data

Results flagged for a closer look

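In 7 of 20 groups of 10 libraries that held any read of a member, 1 library lay far from the rest, with a gap above 0.466 of the group's range. The groups pool 3 culture sets and some hold many values of 0, so no chance rate can be set beside this count. Of the 7 groups, 6 were of members with few reads, whose values rest on a handful of counts.

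Mrgprd stood at 9.36 CPM in GFP replicate 4 (7DIV set), with the next GFP library at 4.81 CPM. Mrgpra3 had 0.36 CPM in GFP replicate 9 and 0.198 CPM in untransduced replicate 7, against 0.172 and 0.083 CPM in the next libraries. Mrgprb4 had 0.63 CPM in DN replicate 8 and no read in the other 9 DN libraries. Mrgprb5 had 0.181 CPM in DN replicate 9, 0.345 CPM in GFP replicate 10 and 0.204 CPM in untransduced replicate 5.

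The pseudogene Mrgprx3-ps was the family gene whose difference between DN and GFP depended on culture set by edgeR's test (joint adjusted p = 0.0299). Its log2 fold change was 6.62 (SE 0.56) in the plain set, 2.94 (SE 0.46) in the 7DIV set and 3.07 (SE 0.37) in the dated set. The dated minus plain difference was -3.55 (SE 0.68, edgeR adjusted p = 0.032). GFP libraries of the plain set held 11 reads in all, from 2 to 5 each. Without replicate 1, 2, 3, 5, 8 or 9 the joint adjusted p was 0.267, 0.171, 0.119, 0.0619, 0.0749 or 0.0928, and with no replicate block it was 0.0635, so the call was lost in each of these. It was 3.11e-05 with DESeq2 and 0.000511 without untransduced replicate 4.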

How the results depend on the processing

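There were 718 alternative values for 55 results. Of these, 689 kept their side of the threshold, moved by less than the spread between replicates or, as counts over lists, changed little. None of the 718 reversed a value past the threshold, and 47 changed sign where neither value was past it. The DN minus GFP log2 fold change ran from 2.89 to 4.94 for Mrgprd, from 0.62 to 1.42 for Mrgprx1, from -0.05 to 0.02 for Mrgpre and from -0.37 to -0.18 for Mrgprf.

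In the plain set alone Mrgprd was 4.94 higher on the log2 scale than in GFP and 4.92 higher than in untransduced cultures. Without the filter, the Mrgprd differences between sets in the DN effect passed, at -2.04 (7DIV against plain), -1.23 (dated against plain), 0.81 (dated against 7DIV) and jointly (adjusted p = 1.46e-13), while 1.77 for 7DIV against plain in GFP libraries did not (adjusted p = 0.0829). The differences in the DN effect kept nearly their size, while the SE of 7DIV against plain went from 0.61 to 0.24. The cause was not tested. Taking no replicate block left the Mrgprd log2 fold change at 3.79 and changed no call of a member.

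For dated against plain in control cultures, Mrgprd passed with DESeq2 (1.36) and in untransduced libraries with and without replicate 4 (1.83 in both), and Mrgprf passed with DESeq2 (-0.54) and in untransduced libraries without replicate 4 (-0.58). Mrgprx1 did not pass in untransduced libraries (0.91), and for dated against 7DIV it passed there without replicate 4 (-0.89). Leaving out GFP libraries one at a time gave 1.06 to 2.26 for Mrgprd between 7DIV and plain, 1.08 to 1.85 for Mrgprd and -0.66 to -0.44 for Mrgprf between dated and plain, and -0.61 to -0.16 for Mrgprx1 between dated and 7DIV, each range holding values on both sides of the threshold. Mrgprd between dated and plain passed without GFP replicate 2, 4 or 6, Mrgprf without replicate 4, and Mrgprx1 between dated and 7DIV without replicate 8.

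Median-ratio and upper-quartile factors, and leaving out untransduced replicate 4, each took the lower calls of the NP1 list from 0 to 1 and of the C-fibre list from 1 to 2. Without that library the itch list had 4 lower calls in place of 2, and genes called between DN and GFP went from 2054 to 3239. Genes called for a DN effect that depended on set ranged from 0 (without replicate 1 or 3) to 544 (without untransduced replicate 4) around 66. Between dated and plain they ranged from 999 to 5337 in untransduced libraries, with and without replicate 4, around 3303 in GFP libraries, and between 7DIV and plain they fell to 2779 without GFP replicate 1, from 4414. Depth limits Mrgpra3, Mrgprb4 and Mrgprb5, for which few reads stand behind each value.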
